A study of Mus musculus with 4 samples.

Results

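The major urinary protein (Mup) genes were examined in the livers of wild-type (WT) and PA mice. Members were chosen by symbol, as every gene of the annotation of the mouse genome build GRCm38 called Mup or Mup-ps with a number. Of 55487 gene identifiers in the files, 49 had such a symbol, and the 48 that lie in the cluster on chromosome 4 were taken as members, 22 protein-coding genes and 26 pseudogenes. The remaining one, Mup-ps22, lies on chromosome 11 (55123695 to 55123937) and was left out. The comparison rests on 4 female mice on the FVB background, all aged 11 weeks and on a standard chow diet, 2 WT and 2 PA. The PA mice carry a hypomorphic genotype written Pcca-/- (A138T) in the labels, in which Pcca, a subunit of the mitochondrial enzyme propionyl-CoA carboxylase, is altered; the labels give no transgene or treatment that the groups share. The title of the series names acylation of histone H4 under metabolic perturbation, and the comparison made here is of liver transcripts between the genotypes.

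Major urinary proteins are small secreted lipocalins, barrel-shaped proteins that hold a hydrophobic ligand. Hepatocytes make them in large amounts, they pass from the blood into the urine, and there they bind and slowly release pheromones that mice use in scent marking. The genes are expressed at a higher level in male than in female liver, and growth hormone, thyroid hormone and glucocorticoids are known to act on them. Mup20, also called darcin, is a pheromone in its own right.

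The cluster spans chr4:59956804-62150863, which is 2.19 Mb. Of the coding members, 21 lie on the minus strand and Mup6 alone lies on the plus strand, while 20 pseudogenes lie on the plus strand and 6 on the minus strand. Aligned coding sequences of the GENCODE M21 transcripts split the coding members into 2 sets. In 16 of them (Mup1, Mup2, Mup7 to Mup19 and Mup22), called near-identical here, every pair was 98.2 to 99.8% identical, with 1 to 10 differing bases. The other 6 (Mup3, Mup4, Mup5, Mup6, Mup20 and Mup21), called divergent, were 82.4 to 91.4% identical to those 16. Mup22 and Mup18 differed by 1 coding base, Mup3 was closest to Mup21 at 94.8% and Mup20 was closest to Mup11 at 91.4%.

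The following 100 coding bases are printed because they show how far a read from one copy can be told from the next. They correspond to coding bases 127 to 226 of Mup22, counted from 1 at its start codon, and capitals mark bases that differ from Mup22.
Mup22 and Mup10: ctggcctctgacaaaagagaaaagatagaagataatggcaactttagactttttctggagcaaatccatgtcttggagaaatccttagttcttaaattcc
Mup18 and 7 others: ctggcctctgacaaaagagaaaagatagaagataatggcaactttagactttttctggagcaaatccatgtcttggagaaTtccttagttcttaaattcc
Mup17 and Mup13: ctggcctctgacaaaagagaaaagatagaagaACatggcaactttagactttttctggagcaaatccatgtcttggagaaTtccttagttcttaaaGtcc
Mup20: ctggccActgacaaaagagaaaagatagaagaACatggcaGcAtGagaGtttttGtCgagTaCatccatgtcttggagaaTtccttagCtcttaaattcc
Mup3 and Mup21: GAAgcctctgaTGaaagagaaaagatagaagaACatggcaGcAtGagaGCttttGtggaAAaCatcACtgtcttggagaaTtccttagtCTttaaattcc
The second stretch is shared by 8 members (Mup1, Mup2, Mup9, Mup11, Mup12, Mup15, Mup18 and Mup19) and differs from Mup22 only by A207T, in which the base of Mup22 stands first. Mup17 had 4 differences, Mup20 had 13 and Mup3 had 21. Over whole annotated transcripts, 0% of 100-base windows of Mup22 and of Mup19 were found in no other Mup transcript, against 2.66% for Mup15, 12.9% for Mup18, 29.4% for Mup11, 40.6% for Mup17, 61.2% for Mup20 and 97.8% for Mup3. The reference genome is of another strain (C57BL/6J) than these FVB mice, so each value below is that of reads assigned to a reference copy; how FVB copies map onto them was not tested.

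Libraries held 25575016 to 30110400 gene counts. PA replicate 1 stood apart from the other 3 libraries. Its share of reads mapped to several places was 13.5% against 9.11 to 9.42%. Its share of counts from mitochondrial genes was 13.6% against 6.90 to 8.98%. The part of this library in the results was not tested. Values without it are given for most called members, but not for every member or for every gene of the lists below. Pcca itself was at 60.3 and 58.9 CPM (counts per 1000000 counts of the library) in WT and 34.2 and 47.4 CPM in PA. The log2 fold change was -0.55 (SE 0.22, edgeR quasi-likelihood test with Benjamini-Hochberg adjusted p = 0.398). Counts per gene do not show which allele the reads come from, so this value does not check the labels. Summed hepatocyte markers (Alb, Ttr, Cps1 and 7 others) were at 158269 to 176215 CPM in WT and 147333 to 177586 CPM in PA. Of other tissues known to express Mup genes, 4 of 5 salivary and lacrimal gland markers (all but Amy1, which liver also expresses) and 3 of 3 mammary markers had no count in any library.

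Summed transcripts of Mup genes were far lower in both PA livers than in both WT livers, for coding genes and for pseudogenes. Among the 21 members with enough reads to test, Mup20 was the one whose groups overlapped. Of these, 16 had enough reads only in the WT libraries, so they had to be higher there. Both WT libraries exceeded both PA libraries in 21.9% of all tested genes. On the scale of RSEM TPM (transcripts per 1000000), where levels are per length and reads that fit several copies are divided among them, the members together made up 2.48 and 2.43% of all liver transcripts in WT and 0.0414 and 0.0581% in PA. The summed level was 24541 ± 401 TPM in WT and 497 ± 118 TPM in PA (SD, n = 2), a ratio of 49.3. The near-identical set went from 13508 ± 396 to 15.7 ± 2.69 TPM, a ratio of 859 (259 in CPM of uniquely mapped reads), and the divergent set from 11018 ± 805 to 481 ± 116 TPM, a ratio of 22.9 (24.8 in CPM of uniquely mapped reads). In bulk tissue, fewer cells making a transcript and less of it per cell cannot be told apart. With 2 mice a group, an exact permutation test of a single value cannot give a p under 0.05, and no p is given for these sums; single members were tested in the fit across all genes.

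Of the 48 members, 37 had at least 1 uniquely mapped count, and 21 passed the filter on low counts. The filter asks for about 0.360 CPM in 2 libraries, and 16 of the 21 passed only through the WT libraries, so they had to be higher there; counts over the tested members are therefore a description. At an adjusted p under 0.05, 16 were called lower in PA and 0 higher, by edgeR's quasi-likelihood test. Of all 14411 genes tested, 0.812% were called in either direction, 0.548% lower and 0.264% higher. No member was higher at an unadjusted p under 0.05 either. DESeq2 called 20 members lower and 0 higher, where it called 3.01% of all genes (1.72% lower, 1.29% higher), and limma-voom called 15 lower and 0 higher, where it called 0.604% (0.409% lower, 0.194% higher). The median log2 fold change of the tested members was -6.11, against 0.00 over all genes. Both WT libraries exceeded both PA libraries in 20 of the 21 tested members, which 21.9% of all tested genes did.

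**Figure D1:**
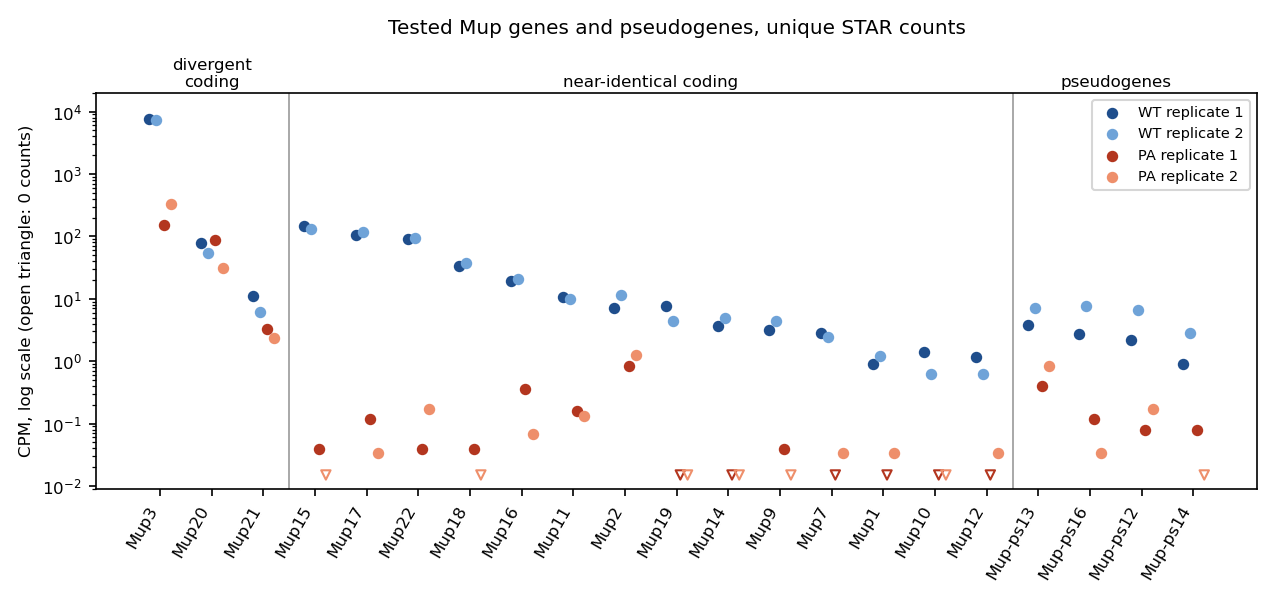
CPM of each of the 21 tested members in each library, on a log axis; a point is 1 library and an open triangle marks 0 counts. Mup20 is the member whose WT and PA points mix. The near-identical coding genes fall to 9 counts or fewer in each PA library, except Mup2 with 21 and 37.

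Mup3 had the most unique reads of all members in every library; in TPM it was highest by group mean, but below Mup20 in PA replicate 1. It lies at chr4:62083476-62087342 on the minus strand and is one of the divergent genes, so nearly all of its transcript is told apart from the other members. Mup3 was at 7608 and 7333 CPM in WT and at 150 and 334 CPM in PA. The 2 groups were more than an order of magnitude apart, and PA replicate 2 was above PA replicate 1. The log2 fold change was -4.95 (SE 0.48, edgeR adjusted p = 0.00664), with -4.48 when PA replicate 1 was left out and -5.64 when PA replicate 2 was left out. In TPM, Mup3 ranked 14th of all genes in WT by group mean and 334th in PA.

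Mup20 did not follow that pattern. The gene lies at chr4:62050234-62054158, beside Mup3 and in the same orientation. It was at 77.3 and 54.2 CPM in WT and at 88.4 and 31.1 CPM in PA. The highest and the lowest values were both PA libraries. The log2 fold change was -0.14 (SE 0.45, edgeR adjusted p = 0.945), and its sign turned with the library left out, from -1.08 without PA replicate 1 to 0.42 without PA replicate 2; none of these was called. A p this large does not show that the level was the same in both groups. The ratio of Mup3 to Mup20 within a library, which does not depend on scaling, was 98.4 and 135 in WT and 1.70 and 10.8 in PA in unique counts, and 46.6 and 61.7 against 0.712 and 4.57 in TPM.

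Mup21, the third divergent gene tested, binds ligands as a lipocalin like the rest and is the last member of the cluster (chr4:62147932-62150863). It was at 11.1 and 6.24 CPM in WT and 3.26 and 2.39 CPM in PA. The groups did not overlap, but the log2 fold change of -1.63 (SE 0.35) missed the threshold (edgeR adjusted p = 0.114). It was called when WT replicate 2 was left out (log2 fold change -1.97, adjusted p = 0.0102), and on all 4 libraries by DESeq2 (0.00389) and by edgeR with no filter on low counts (3.64e-06), but not by limma-voom (0.144) or with RSEM counts (0.137). The remaining divergent genes were hardly detected: Mup4 had 0 counts in all 4 libraries, Mup5 had 3 and Mup6 had 9, all of them in WT.

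Among the near-identical genes, those with the most unique reads lost nearly all of them. Mup15 (chr4:61435790-61439743) was at 144 and 129 CPM in WT and at 0.0393 and 0 CPM in PA (7707 counts in WT and 1 in PA, edgeR adjusted p = 0.000112). Mup17 (chr4:61591929-61595871) was at 105 and 117 CPM in WT and 0.118 and 0.0337 CPM in PA, a log2 fold change of -10.49 (SE 0.40, edgeR adjusted p = 0.000112). Mup22 (chr4:60817589-60821463) was at 90.3 and 95.7 CPM in WT and 0.0393 and 0.168 CPM in PA (-9.69, SE 0.41, edgeR adjusted p = 0.000167). The WT libraries lay close together for these genes, whereas the PA values stand for 1 to 5 reads each or none. The fitted value therefore moved with the PA library left out, from -11.51 to -9.83 for Mup17 and from -9.07 to -11.05 for Mup22 (without PA replicate 1 and 2, respectively). For Mup15 it was -14.93 and -11.61, and all 3 genes stayed called.

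Mup18 was at 33.2 and 37.8 CPM in WT and at 0.0393 and 0 CPM in PA, and Mup16 was at 19.2 and 20.4 CPM in WT and 0.353 and 0.0673 CPM in PA. For Mup18 the ratio of summed counts was 1948, with a 95% exact binomial interval of 349 to 76962 that covers counting error only (edgeR adjusted p = 0.000212; the fitted value was -12.99 when PA replicate 1 was left out and -9.66 when PA replicate 2 was). Mup16 had a log2 fold change of -6.59 (SE 0.48, edgeR adjusted p = 0.00179; -8.10 without PA replicate 1 and -5.79 without PA replicate 2). Mup11 (chr4:60658466-60662411) was at 10.7 and 9.94 CPM in WT and 0.157 and 0.135 CPM in PA, and its log2 fold change of -6.11 (SE 0.34, edgeR adjusted p = 0.000535) lay between -6.21 and -6.00 whichever library was left out. Both of its groups were tight, which set it apart from the members with a PA library at 0.

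Mup19 was at 7.63 and 4.48 CPM in WT and Mup14 at 3.72 and 4.91 CPM, and neither had a count in PA. With the PA group set at 3 counts, the ratio of summed counts was 114 for Mup19 and 78.3 for Mup14. The lower 95% exact limits were 38.7 and 26.5, which cover counting error only. Mup9 (3.19 and 4.40 CPM in WT) had 1 PA count in all and a count ratio of 206, with a 95% exact interval of 36.7 to 8193. Mup7 (2.87 and 2.47 CPM) likewise had 1 PA count, and its ratio was 148 (26.2 to 5902), as did Mup1 (0.913 and 1.22 CPM), whose ratio was 58.0 (10 to 2329). All 5 were called lower, with edgeR adjusted p-values of 0.00602 to 0.0336. The fitted log2 fold changes of the 3 with a single PA count moved with the PA library left out. Without PA replicate 1 and 2 they were -9.76 and -6.44 for Mup9, -6.13 and -9.19 for Mup7, and -4.80 and -7.86 for Mup1, each still called.

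Mup2 kept the largest residue among the near-identical genes in unique reads. It was at 7.20 and 11.5 CPM in WT and 0.824 and 1.25 CPM in PA. The groups were well apart, and the log2 fold change was -3.16 (SE 0.36, edgeR adjusted p = 0.0147). It lies at chr4:60135932-60154289. A pair of near-identical genes missed the threshold in unique counts. Mup10 was at 1.40 and 0.628 CPM in WT with no PA count (edgeR adjusted p = 0.0587). With the PA group set at 3 counts its ratio was 19.3, with a lower 95% exact limit of 6.30. Mup12 was at 1.17 and 0.628 CPM in WT with 1 PA count, a ratio of 51.1 (8.78 to 2058; edgeR adjusted p = 0.0561). Their calls depended on the test and on the library left out. With all 4 libraries, DESeq2 (adjusted p = 0.00140 and 0.0299 for Mup10 and Mup12) and limma-voom (0.0212 and 0.0409) called both, as did edgeR with no filter on low counts, and edgeR on unstranded counts called Mup12 (0.0482). Mup10 was called with any library but WT replicate 1 left out (adjusted p = 0.00366 to 0.0485, and 0.0919 without WT replicate 1), and Mup12 was called without PA replicate 2 (0.0447) or WT replicate 2 (0.0137).

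The near-identical genes Mup8 and Mup13 were not tested. Mup8 had 2 counts, both in WT, and Mup13 had 13, also all in WT. RSEM gave Mup13 60.9 and 19.6 expected counts in WT and 0 in both PA libraries. The 27 untested members together held 92 unique counts in WT and 4 in PA, and 11 of them had none in any library.

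Pseudogenes of the cluster are copies with a disrupted reading frame, which can still be transcribed. Of the 26, 16 had a count and 4 were tested, and 3 of those were called lower. Mup-ps16 was at 2.71 and 7.62 CPM in WT and 0.118 and 0.0337 CPM in PA (log2 fold change -6.06, SE 0.78, edgeR adjusted p = 0.0256). Mup-ps12 was at 2.18 and 6.68 CPM in WT and 0.0785 and 0.168 CPM in PA (-5.08, SE 0.74, edgeR adjusted p = 0.0374). Mup-ps13 was at 3.75 and 6.99 CPM in WT and 0.393 and 0.841 CPM in PA (-3.09, SE 0.47, edgeR adjusted p = 0.0454). In each of them WT replicate 2 was above WT replicate 1. Without WT replicate 2 the log2 fold changes were -5.12, -4.06 and -2.57, each still called. Without PA replicate 1 they were -7.07, -4.67 and -2.66, and without PA replicate 2 -5.39, -5.73 and -3.75, called as well.

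Mup-ps14 was at 0.913 and 2.87 CPM in WT and 0.0785 and 0 CPM in PA and was not called (edgeR adjusted p = 0.0741), though it was without PA replicate 1 (0.0435) or WT replicate 1 (0.000848), by DESeq2 (0.000480) and with no filter on low counts. The most counted of the untested pseudogenes was Mup-ps10, with 9 and 31 counts in WT and 1 and 0 in PA. Summed over pseudogenes, unique counts were 973 in WT and 52 in PA, while RSEM expected counts were 278 and 6. RSEM thus gave pseudogenes fewer reads than the unique counts did, the opposite of the near-identical coding genes. Mup-ps22 on chromosome 11, which was left out, had 45 and 42 unique counts in WT and 0 and 1 in PA, with 0 expected counts in every library.

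How many reads a member received depended strongly on whether reads shared between copies were counted. STAR counts hold only reads that map to 1 place, while RSEM expected counts divide shared reads among the copies by a model. In WT, RSEM gave Mup19 124 times its unique count, Mup11 64.6 times, Mup10 62.6 times, Mup14 58.3 times, Mup22 49.2 times and Mup18 17.7 times. The same ratio was 2.32 for Mup15, 1.89 for Mup20 and 1.22 for Mup17. For Mup3 it was 0.881 and for Mup21 0.617, so RSEM assigned those fewer reads. Summed over the near-identical set the ratio was 17.1 in WT and 5.82 in PA, against 0.890 and 1.08 for the divergent set.

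**Figure D2:**
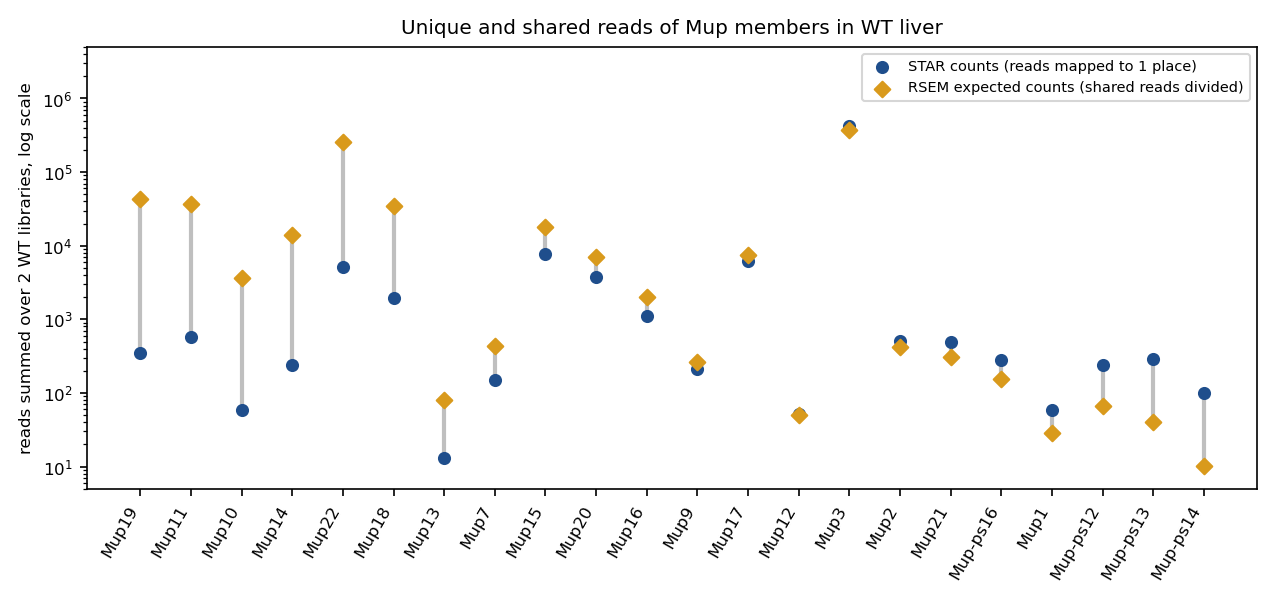
Reads of each member summed over the 2 WT libraries, as unique STAR counts (circles) and RSEM expected counts (diamonds), on a log axis and ordered by the ratio of the second to the first. Mup19 stands at the left with a ratio of 124, and Mup3, the member with most reads, shows nearly the same value by both.

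Set against the RSEM sum, 94.2% of the near-identical reads were missing from the unique counts in WT and 82.8% in PA. Over all members the share was 43.5% in WT and 9.09% in PA, each over the summed libraries of the group. The PA libraries differed, with 24.0% in replicate 1 and -2.22% in replicate 2. The negative value means that RSEM assigned fewer reads there than the unique counts held. Other liver families with similar copies lost less in WT, with RSEM sums of 1.27 times the unique sum for 9 Cyp3a genes and 1.55 times for Serpina1a to Serpina1e; over all genes the ratio was 0.979. The members did not follow the share of unique windows closely: Mup15, with 2.66% unique windows, kept more of its reads than Mup11, with 29.4%. Mup22 and Mup19 had 0% unique windows of 100 bases, yet 5209 and 348 unique counts in WT. Where those reads differ from other copies was not tested. These ratios are a description of 2 counting schemes, and neither gives a true count per copy.

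By RSEM the order of levels was different from that by unique reads. Mup22 became the second most abundant member, at 7777 and 8723 TPM in WT and 9.18 and 10.6 TPM in PA, next to Mup3 at 11326 and 10273 TPM in WT and 165 and 459 TPM in PA. Mup11 followed at 1608 and 1301 TPM in WT, Mup19 at 1315 and 1222 TPM, and Mup18 at 1032 and 1013 TPM. The ranges of Mup11 and Mup19 in WT overlapped, but Mup11 was above Mup19 within each WT library. With 2 WT mice this order remains uncertain. Mup20 was at 243 and 166 TPM in WT and 231 and 101 TPM in PA. By group means it ranked 9th among members in WT and second in PA, and 549th and 548th among all genes.

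**Figure D3:**
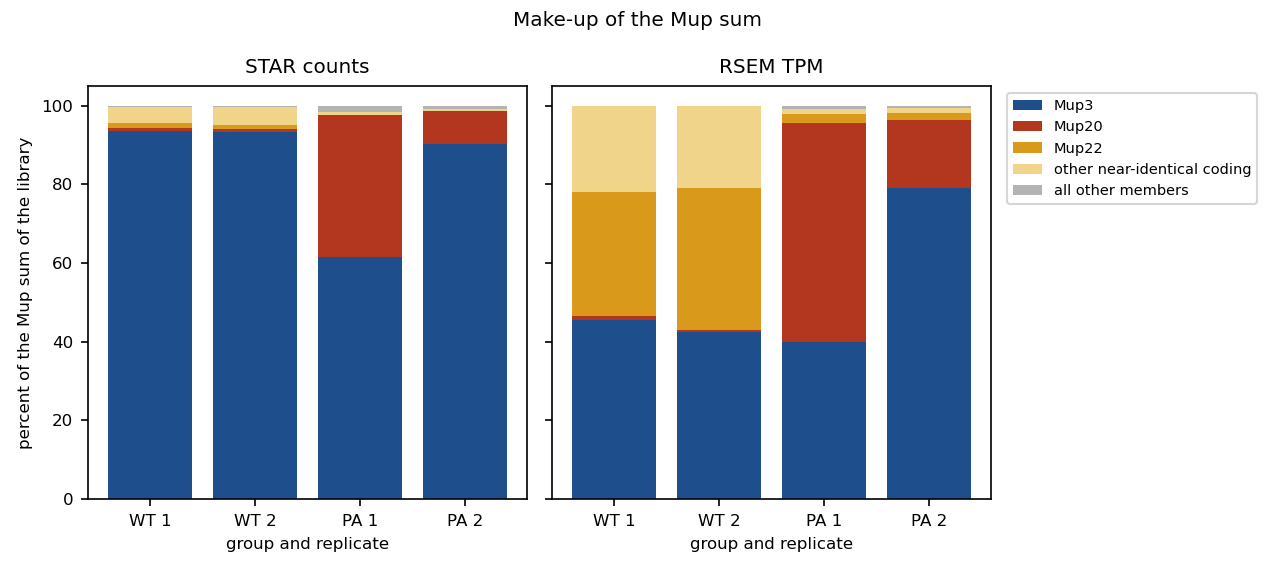
Percent of the Mup sum of each library held by Mup3, Mup20, Mup22, the other near-identical coding genes and all other members, for unique STAR counts (left) and RSEM TPM (right). Mup22 and the other near-identical genes fill most of the TPM bars in WT and little in PA, where Mup20 fills 55.9% in replicate 1 and 17.3% in replicate 2.

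The make-up of the Mup sum thus differed between genotypes and between the PA mice. Of the TPM sum, Mup3 held 45.6 and 42.4% in WT and 39.8 and 79.1% in PA. Mup22 held 31.3 and 36.0% in WT and 2.22 and 1.83% in PA. Mup20 held 0.979 and 0.686% in WT and 55.9 and 17.3% in PA. The PA libraries agreed on the low share of Mup22 and differed on whether Mup20 or Mup3 was the larger part.

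Calls were mostly shared between both kinds of count. With RSEM expected counts 14 of 21 tested members were called lower and 0 higher, where 0.681% of 13802 genes were called in either direction. Of these, 13 were called with unique counts too. Mup10 was called only with RSEM counts (log2 fold change -10.62, edgeR adjusted p = 0.000202), and Mup1, Mup-ps12 and Mup-ps13 only with unique counts. For Mup11 the log2 fold change was -9.35 with RSEM counts against -6.11 with unique counts. Mup3 had -4.95 and Mup2 -3.17 with RSEM counts, close to their unique values.

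**Figure D4:**
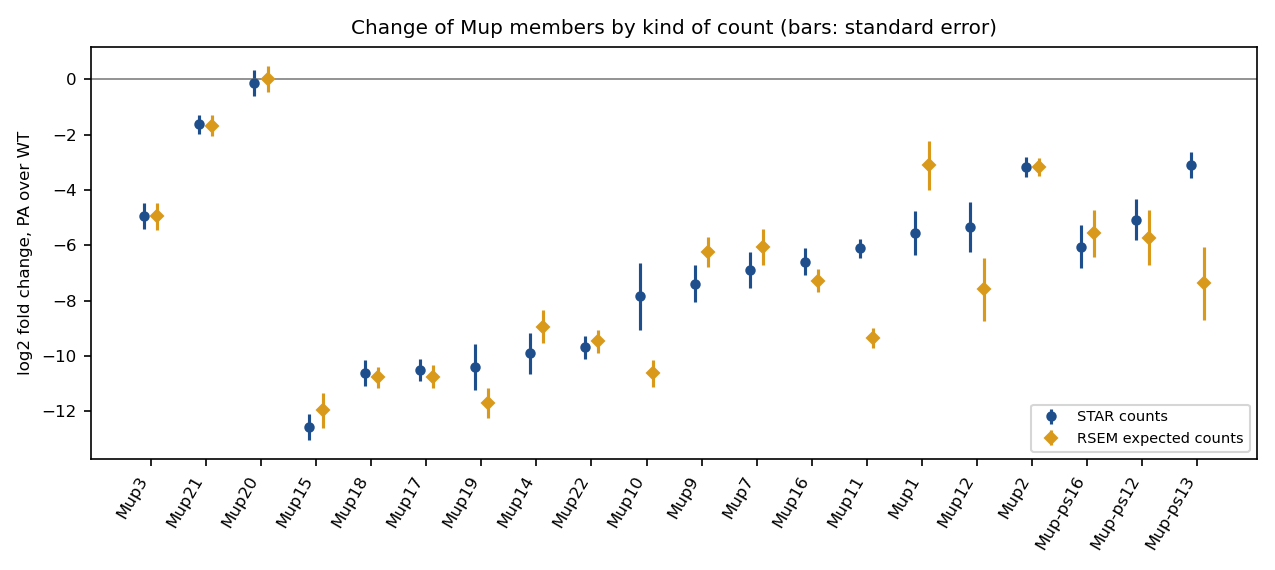
Log2 fold change of PA over WT for the 20 members tested with both kinds of count, with the SE defined above as bars. Mup20 lies at 0 with both, and Mup11, Mup10 and Mup-ps13 are among those further from 0 with RSEM counts; fitted values of members with 3 or fewer PA counts depend on the prior count and are no bound.

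The genes around the members were compared to see where along the chromosome the difference stopped. Between members lie 6 other genes, of which 2 were tested. Gm13775, an unnamed gene model on the plus strand (chr4:61783123-61801286) that starts 854 bases from the annotated start of Mup19, was at 19.9 and 36.4 CPM in WT and 0.236 and 0.0673 CPM in PA (log2 fold change -7.55, SE 0.54, edgeR adjusted p = 0.00179). It overlaps Mup-ps16 on the same strand, so reads of the pair may be shared. Leaving out PA replicate 1 gave -8.61 and leaving out PA replicate 2 gave -6.88, called in both. Gm12909, also on the plus strand (chr4:62088288-62090524), starts 946 bases from the annotated start of Mup3. It was at 3.36 and 4.87 CPM in WT and 3.14 and 3.16 CPM in PA, which was not called (-0.38, SE 0.29, edgeR adjusted p = 0.674).

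Within 1 Mb on either side, 21 of 47 genes were tested, and 1 was called. That gene was Rgs3, a regulator of G-protein signalling 409 kb beyond the last member, at 11.0 and 14.8 CPM in WT and 2.94 and 3.10 CPM in PA (log2 fold change -2.09, SE 0.25, edgeR adjusted p = 0.0181). The median over the flanking genes was -0.16. The most abundant were Ambp, itself a lipocalin made by hepatocytes (-0.27, SE 0.26), the copper importer Slc31a1 (-0.01, SE 0.25) and Hsdl2, a peroxisomal dehydrogenase-like protein (-0.04, SE 0.27). None of these 3 was called.

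**Figure D5:**
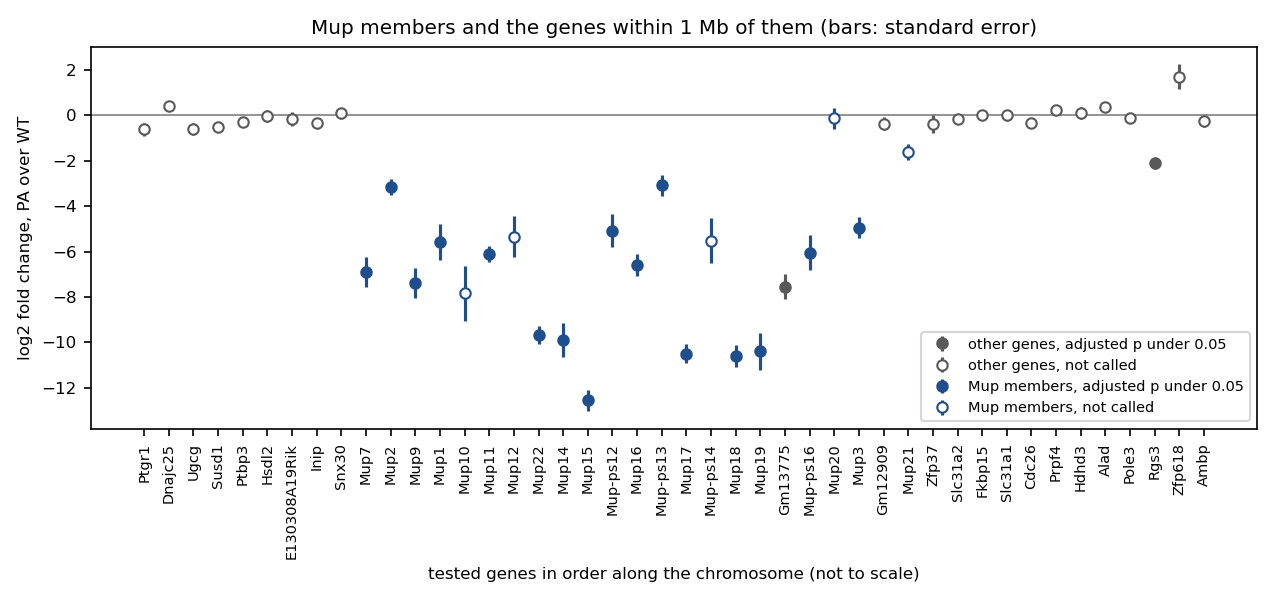
Log2 fold change of PA over WT, with the SE defined above, of the tested members and of the tested genes within 1 Mb of them. Genes are in order along the chromosome and not to scale. Filled points had an adjusted p under 0.05. The members lie between -12.56 and -3.09 except for Mup20 at -0.14 and Mup21 at -1.63, and the flanking genes lie nearer 0, with Rgs3 at -2.09 and Zfp618, not called, at 1.69 as the furthest.

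Other lipocalins were looked at as relatives of the same fold. Of 18 listed, 17 were in the files, 9 were tested and 1 was called lower. That was Ptgds, a prostaglandin D synthase, at 4.50 and 2.08 CPM in WT and 0.275 and 0.404 CPM in PA (log2 fold change -3.25, SE 0.51, edgeR adjusted p = 0.0472); it was not called with RSEM counts (adjusted p = 0.0577), with limma-voom (0.0928) or without WT replicate 1 (-2.60, 0.0684). Which genes of the list were called changed with the library left out. The most abundant were the retinol carrier Rbp4, at 1247 and 1870 CPM in WT and 2598 and 3095 CPM in PA (0.87, SE 0.31, edgeR adjusted p = 0.328), Ambp, and the acute-phase protein Orm1, at 887 and 816 CPM in WT and 173 and 411 CPM in PA (-1.54, SE 0.41, edgeR adjusted p = 0.188). The median over the list was -0.27. DESeq2 called 2 of the list (Ptgds and Orm1), where it called 3.01% of all genes, and limma-voom called 0.

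Genes of the hormone and transcription factor pathways known to act on Mup genes were also compared. Of 27 tested, edgeR called 0 at an adjusted p under 0.05, with 5 at an unadjusted p under 0.05. The share of all genes under that unadjusted p is not given, so whether 5 of 27 exceeds it cannot be read here. DESeq2 called 2 (Socs2 and Cish), where it called 3.01% of all genes, limma-voom called 0, and the median log2 fold change was -0.25. Which of the 27 were called changed with the library left out, as did the number called over all genes. Socs2 and Cish are feedback inhibitors that growth hormone induces through STAT5. Socs2 was at 94.5 and 39.9 CPM in WT and 9.11 and 16.5 CPM in PA (-2.39, SE 0.46, edgeR adjusted p = 0.0823), and Cish was at 12.2 and 16.6 CPM in WT and 5.57 and 6.86 CPM in PA (-1.20, SE 0.25, edgeR adjusted p = 0.105). Neither gene's groups overlapped. Both WT libraries were above both PA libraries in 21.9% of all tested genes as well.

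Low unadjusted p-values were also found for the female-biased repressor Cux2 and the transcription factor Cebpb. Cux2 was at 22.4 and 17.1 CPM in WT and 0.471 and 6.09 CPM in PA (-2.57, SE 0.82, edgeR adjusted p = 0.277). Cebpb was at 9.68 and 10.1 CPM in WT and 24.7 and 14.8 CPM in PA (1.0, SE 0.28, edgeR adjusted p = 0.209). Socs2, Cish, Cux2 and Cebpb were named for their unadjusted p after their values were seen. The most abundant of the list were Igf1, the growth hormone-induced growth factor (-0.93, SE 0.45, edgeR adjusted p = 0.491), Hnf4a, a factor of hepatocyte identity (0.08, SE 0.24), and the growth hormone receptor Ghr (-0.25, SE 0.26).

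Promoter sequence was compared because most tested members were lower in PA together. RefSeq windows on GRCm38.p6, from 250 bases before to 50 after the annotated start, were given for 14 of the 22 coding members, 10 of them near-identical. Mup20 and Mup22 had no window, so Mup20 cannot be contrasted with the others here. The 14 included members not called lower, such as Mup4, Mup6 and Mup21. Over aligned bases, those near-identical windows were 94.0 to 98.9% identical to that of Mup11, and the Mup3 window was 76.7% identical to it. The STAT5 motif TTCNNNGAA was in 0 of the 14 windows and in 8.30% of all 32851 windows of this length. A TATA box, spelled TATATAA, was searched on both strands and chosen after the sequences were seen. It was found in 13 of 14 windows (all but Mup7) and in 3.24% of all windows. The Mup7 window aligned to that of Mup11 over 194 columns (98.5% identical) and ended before the place of the motif in Mup11. Its lack of the motif therefore does not set Mup7 apart from the other copies. Where the motif lies relative to the annotated start ranged from 31 bases before to 12 bases after it, so the annotated starts are not all at the same place in these copies.

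The windows of the 2 most abundant members in WT by TPM with an entry are given from 100 bases before to 20 after the annotated start, with that motif in capitals. Both are on the minus strand and are printed 5′ to 3′ in the direction of transcription, Mup3 at chr4:62087298-62087417 and Mup11 at chr4:60662376-60662495.
Mup3: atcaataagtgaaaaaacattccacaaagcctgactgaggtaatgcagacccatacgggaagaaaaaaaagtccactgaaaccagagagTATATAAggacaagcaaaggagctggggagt
Mup11: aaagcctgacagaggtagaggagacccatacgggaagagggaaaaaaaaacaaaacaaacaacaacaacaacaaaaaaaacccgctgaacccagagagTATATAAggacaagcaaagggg
A match is a description of letters and not evidence of binding, and the absence of the STAT5 letters here says nothing of sites elsewhere.

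Sums of cell type markers in each group are given beside these results. Among all tested genes taken singly, both WT libraries exceeded both PA libraries in 21.9%. Summed Kupffer cell markers were at 440 to 508 CPM in WT and 218 to 307 CPM in PA, endothelial markers at 176 to 192 and 147 to 150 CPM, and erythroid markers at 40.1 to 74.4 and 10.8 to 14.8 CPM. B cell markers summed to 2.97 to 3.14 CPM in WT and 1.18 to 1.41 CPM in PA, and T and NK cell markers to 2.00 to 2.18 and 0.981 to 1.88 CPM. Cholangiocyte markers summed to 34.3 to 48.2 CPM in WT and 29.8 to 32.5 CPM in PA, although 4 of the 5 genes had a fold change above 0. Of 5 pancreas markers 4 had no count, and Cela1 was at 16.8 to 29.2 CPM in WT and 7.74 to 11.4 CPM in PA. Stellate cell markers overlapped between groups (407 to 426 and 410 to 451 CPM), and the 3 adipose markers summed to under 0.1 CPM in every library. Of all these, edgeR called the erythroid gene Hbb-bs lower and no other marker. DESeq2 called the Kupffer markers Cd5l and Clec4f, the erythroid Hbb-bs and Hba-a1, and Cela1, where it called 3.01% of all genes. Calls of Kupffer markers by edgeR changed with the library left out. Their part in the Mup result was not tested. The hepatocyte sum, as given above, overlapped between the groups. Of its 10 markers edgeR called 0, with 3 at an unadjusted p under 0.05, and DESeq2 called 1 (Cps1). The share of all genes under that unadjusted p is not given, so the 3 cannot be set against it.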

How the data were processed

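PolyA RNA from frozen liver of 2 WT and 2 PA mice was sequenced, and groups were taken from the sample titles. The deposited STAR files hold raw read counts per gene by strand, as their layout shows; the authors' RSEM files hold expected counts, TPM, FPKM (not used) and lengths, per the file headers. STAR 2.7.6a, RSEM 1.3.3 and GRCm38 come from the submitters' processing notes; no source used here names the annotation. Opposite-strand counts (97.0 to 97.1% of stranded counts) were used. Lines naming no gene held 28.1 to 34.3% of reads and stayed out of library sizes. Of the identifiers, 55227 matched GENCODE M21 and 260 did not. Total counts put 3 counts at 0.0996 to 0.117 CPM.

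Counts were tested with edgeR 4.0.16 in R 4.3.3 (quasi-likelihood, TMM, filterByExpr, prior count 0.125) and adjusted over all genes by Benjamini-Hochberg. CPM is on TMM-scaled sizes. Expected counts were rounded. DESeq2 1.42.0 and limma 3.58.1 were alternatives, with others given in the closing section. Members and lists were chosen with earlier results of these data known. Named by rule were all tested members, untested ones with a mean of 10 expected counts in a group, and of each list the called genes and the 3 with the largest CPM. Of the regulators with a low unadjusted p, 1 is not reported here. The steps were tested on simulated data. The design text calls the replicates biological. No pair of libraries agreed within sampling noise (chi-square per degree of freedom 46.3 for WT, 135 for PA).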

Additional observations from a re-analysis of the deposited data

How the results depend on the processing

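The number of Mup members called lower, 16 by edgeR, was 14 to 21 over 13 alternative fits, with 0 called higher in each: 20 with DESeq2, 14 with RSEM counts, 15 with limma-voom, 14 with a minimum of 1 CPM in 2 libraries, 21 without a filter, and 18 to 19 with a library left out. All 16 stayed called whichever library was left out, and 12 in every alternative; RSEM counts lost Mup1, Mup-ps12 and Mup-ps13, limma-voom lost Mup-ps12, Mup-ps13 and Mup-ps16, and the CPM minimum lost Mup-ps13 and left Mup1 untested. Counts over all genes depended more on the fit. Against 38 higher and 79 lower, DESeq2 called 186 and 249, no filter 414 and 488, and leaving out a library gave 50 to 239 higher and 105 to 261 lower (129 and 174 with PA replicate 1 omitted, 239 and 261 with PA replicate 2 omitted, 82 and 139 with WT replicate 2 omitted). The correlation of same-numbered deviations was -0.09, a single value that cannot settle whether same-numbered mice share a batch. With the replicate number as a block, 126 genes were higher and 192 lower, 20 Mup members among the latter. The ratio of summed counts, 26.0, was 40.5 with RSEM counts, 8.11 without Mup3, 85.2 without Mup3 and Mup20 (an alternative added after seeing the data, as was leaving out Mup20 alone, 32.0), and 21.6 to 32.8 with a library left out. Over the summed libraries of a group, the share of reads left out of unique counts was 43.5% in WT and 9.09% in PA. Without Mup3 it was 93.0 and 51.2%. For Mup20, RSEM counts turned the log2 fold change from -0.14 to 0.018, and leaving out a library gave -1.08 to 0.42. Over single members, 234 alternative values kept their direction and call, 24 gained a call, 7 lost one and 3 changed sign; the cause was not tested. Members with few PA reads are limited by depth, since 1 read in a PA library is worth 0.0337 to 0.0393 CPM.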
